A study of Danio rerio with 12 samples.

Results

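The macrophage and microglia genes comprised 10 zebrafish genes: the receptors csf1ra and csf1rb, the transcription factors spi1b and irf8, the macrophage genes mpeg1.1 and marco, and the microglia genes apoeb, havcr1, lgals3bpb and slc7a7. They were found among the 32520 Ensembl identifiers of the files by zebrafish symbol, or else by the upper-case name of the orthologue without its copy suffix, and 12 identifiers were obtained. Elmo1 is an adaptor that, bound to Dock proteins, switches on the small GTPase Rac1. To examine whether the transcripts of these genes changed in its absence, the transcriptomes of 6 elmo1-/- samples were compared with those of 6 elmo1+/+ samples. Each sample held total RNA of 30 whole larvae at 120 hours post fertilization (hpf), so a sample is a pool and not a single animal. Both genotypes carry the Tg(fli1:EGFP) transgene, in which an endothelial promoter drives EGFP, and the elmo1-/- line carries a CRISPR/Cas9 frameshift insertion in an early exon of elmo1. Names of elmo1-/- samples carry the unexplained ending hz. Nothing in the labels says whether the 6 pools of a genotype came from separate clutches, so p-values measure the spread between these samples only.

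Macrophages take up dying cells and microbes, and microglia are the macrophages that settle in the brain. In zebrafish, Spi1 commits precursors to the myeloid lineage, Irf8 directs them to macrophages rather than neutrophils, and signalling through the Csf1 receptors carries macrophages into the brain and retina, where they take on microglial genes such as apoeb. ELMO1 is known from engulfment, in which the Elmo and Dock proteins let a phagocyte reshape its actin around a dying cell. In whole larvae these cells are a small share of the tissue, and fewer cells of a type cannot be told apart from less RNA per cell.

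Total expected counts, in units of 1e+06 counts, ranged from 20.8 to 21.3 in elmo1-/- and from 20.9 to 21.8 in elmo1+/+ samples. The targeted gene elmo1 (ENSDARG00000098753) had 2060 to 2450 expected counts in elmo1-/- and 2655 to 3004 in elmo1+/+ samples. The genotypes did not overlap, as for 0.513% of all tested genes after scaling to depth. The log2 fold change (log2FC) of elmo1, elmo1-/- over elmo1+/+, was -0.26. Its adjusted p among all genes was 0.137 by the quasi-likelihood test of edgeR with Benjamini-Hochberg adjustment and 0.00817 by DESeq2. A count over the whole gene does not check the insertion itself. Markers of other larval tissues (pancreas, retina, lens, cartilage, skin, neurons, liver and kidney), 13 identifiers, all passed the filter on low counts.

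The identifiers matched the 10 names unevenly. csf1ra, marco, apoeb and havcr1 carry the zebrafish symbol, as does csf1rb. SPI1 (ENSDARG00000000767) was taken for spi1b, and IRF8 (ENSDARG00000056407) and SLC7A7 (ENSDARG00000055226) for irf8 and slc7a7. The gene lgals3bpb was found as lgals3bp.1 (ENSDARG00000040528), a synonym in the RefSeq annotation. For mpeg1.1 the name MPEG1 is shared by 3 identifiers, and the sources used here do not say which of the neighbouring zebrafish mpeg1 genes each one is. One of these, ENSDARG00000078569, had 1 count in elmo1+/+ sample 1 and 0 counts in all other samples, below the floor of 3 counts per sample that a count of 0 allows, which covers counting error only. It did not pass the filter on low counts, so 11 of the 12 identifiers were tested. None of the 10 genes shares a chromosome with elmo1 in the GRCz12tu annotation of RefSeq.

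The level of each gene was compared by TPM (transcripts per 1e+06 transcripts), which is divided by transcript length. apoeb (ENSDARG00000040295), an apolipoprotein that carries lipids and is a marker of zebrafish microglia, was present at 205.0 to 494.0 TPM over the 12 samples and lay above 98.3% of the tested genes. It supplied 90.8% ± 1.66 of the summed TPM of the 12 identifiers in the elmo1-/- samples, against 90.2% ± 1.64 in the elmo1+/+ samples (mean ± SD, n = 6 each). SLC7A7 followed with 6.09 to 19.1 TPM, a range that overlapped neither that of apoeb above it nor that of the next gene below it. The other 9 tested identifiers lay between 0.352 and 7.35 TPM. A sum over these genes is therefore largely a measure of apoeb.

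Below SLC7A7, the order by mean TPM was lgals3bp.1, SPI1, the MPEG1 copy ENSDARG00000043093, csf1ra, havcr1, marco, the MPEG1 copy ENSDARG00000055290, IRF8 and csf1rb. Neighbours from lgals3bp.1 to the MPEG1 copy ENSDARG00000055290 overlapped in range, and the gene placed higher was above its neighbour in only 4 to 10 of the 12 samples. IRF8 lay below the MPEG1 copy ENSDARG00000055290 in 12 of 12 samples although their ranges overlapped, and the range of csf1rb (0.352 to 0.71 TPM) stood below that of IRF8 (0.715 to 1.42 TPM). csf1rb exceeded 3.85% of the tested genes and IRF8 9.43%.

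**Figure D1:**
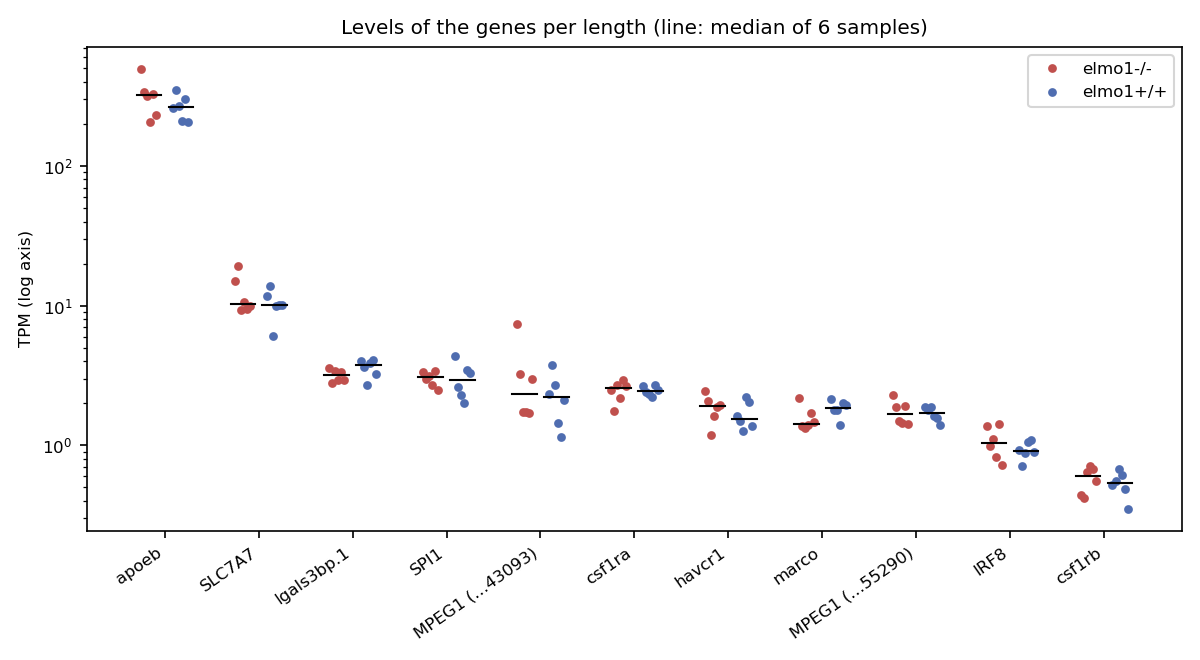
TPM on a log axis for the 11 tested identifiers, ordered by mean, with a point for each elmo1-/- (red, left) and elmo1+/+ sample (blue, right) and a line at the median of 6. apoeb stands above all others at 205.0 to 494.0 TPM, and the genotypes overlap for every gene.

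Comparing elmo1-/- with elmo1+/+ larvae, 0 of the 11 tested identifiers passed the edgeR test at an adjusted p below 0.05, where 0.234% of the 21830 genes did (0.11% higher and 0.124% lower in elmo1-/- larvae). No identifier had an unadjusted p under 0.05, against 6.16% of all genes, and DESeq2 called 0 of 11, against 0.444% of all genes. The genotypes overlapped for all 11, and 0.513% of all genes did not overlap. The fitted log2FC was above 0 for 9 and below 0 for 2 of the 11, where 51.7% of all genes lay above 0, and that of csf1ra changed sign with log2-transformed TPM. The median over the 11 was 0.088, and that of all genes tested was 0.0043.

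CPM values are counts per 1e+06 counts. The receptors were examined first. csf1ra (ENSDARG00000102986), the receptor tyrosine kinase through which Csf1 and Il34 act, had 6.77, 5.10, 7.87, 6.2, 7.70 and 7.94 CPM in elmo1-/- samples 1 to 6, against 6.81, 6.60, 6.60, 5.87, 7.56 and 7.11 CPM in elmo1+/+ samples 1 to 6. The elmo1-/- values reached both above and below those of elmo1+/+ larvae, with 3 samples above the highest and 1 sample below the lowest elmo1+/+ sample. csf1ra had a log2FC of 0.04 (SE 0.109, 95% interval -0.20 to 0.27; edgeR adjusted p = 0.989), which corresponds to 0.873- to 1.2-fold. In zebrafish csf1ra also acts in xanthophores, the yellow pigment cells. The 6 xanthophore identifiers summed to 127.0 to 173.0 CPM in elmo1-/- and 130.0 to 170.0 CPM in elmo1+/+ samples.

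csf1rb (ENSDARG00000053624), the second copy of the receptor, rested on 20 to 33 counts in elmo1-/- and 17 to 33 counts in elmo1+/+ samples. It had 0.981, 1.41 and 1.61 CPM (lowest, median and highest) in elmo1-/- and 0.811, 1.17 and 1.51 CPM in elmo1+/+ samples. A log2FC of 0.15 was fitted (SE 0.186, 95% interval -0.25 to 0.55; edgeR adjusted p = 0.973). Over the 12 samples it varied with a coefficient of variation (CV) of 20.2%, where counting alone gives 19.5% at its mean count. The interval corresponds to 0.844- to 1.46-fold. With a sample left out the log2FC ranged from 0.06 (without elmo1+/+ sample 6) to 0.23 (without elmo1+/+ sample 3), and it was 0.09 without elmo1-/- sample 4.

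Of the transcription factors, SPI1, the ETS factor of myeloid commitment, had 3.35, 3.61 and 4.09 CPM in elmo1-/- and 2.53, 3.44 and 4.75 CPM in elmo1+/+ samples. All elmo1-/- samples lay inside the range of the elmo1+/+ samples. SPI1 differed by a log2FC of 0.06 (SE 0.141, 95% interval -0.24 to 0.36; edgeR adjusted p = 0.987). Its counts were whole numbers in 0 of 12 samples (tolerance 0.01), so some reads were divided with another transcript by the authors' quantification.

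IRF8, which favours the macrophage over the neutrophil fate, had 1.79, 1.37, 1.54, 1.12, 1.79 and 1.05 CPM in elmo1-/- samples 1 to 6, against 1.15, 0.949, 1.19, 1.33, 1.47 and 1.24 CPM in elmo1+/+ samples 1 to 6. In elmo1-/- larvae 3 samples were above the highest elmo1+/+ sample and none was below the lowest. The log2FC of 0.24 (SE 0.175, 95% interval -0.13 to 0.61) did not pass the test (edgeR adjusted p = 0.945), on 20 to 39 counts per sample. The CV over the 12 samples was 20.4%, against 18.8% from counting alone.

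MPEG1 encodes a pore-forming protein of the macrophage phagosome, and the zebrafish mpeg1.1 promoter is the usual driver of macrophage reporter lines. The copy ENSDARG00000043093, called the variable copy below for its CV of 60.9%, had 14.9, 7.01, 3.72, 3.61, 3.34 and 6.69 CPM in elmo1-/- samples 1 to 6. In elmo1+/+ samples 1 to 6 it had 4.46, 7.69, 5.60, 2.84, 2.38 and 4.53 CPM. elmo1-/- sample 1, with 316 counts, stood far above the highest elmo1+/+ sample, and the other elmo1-/- samples lay within the elmo1+/+ range. The log2FC was 0.51 (SE 0.365, 95% interval -0.26 to 1.29; edgeR adjusted p = 0.94). With a sample left out it ranged from 0.09 (without elmo1-/- sample 1) to 0.72 (without elmo1+/+ sample 2). Counting alone gives a CV of 9.24% for this copy.

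The copy ENSDARG00000055290, called the steady copy, had 4.60, 4.02, 3.23, 3.03, 3.71 and 3.2 CPM in elmo1-/- samples 1 to 6 and 3.59, 3.65, 3.90, 3.16, 3.25 and 2.96 CPM in elmo1+/+ samples 1 to 6. Its highest value was again in elmo1-/- sample 1. The CV was 13.7%, against 11.6% from counting, and the highest sample was 1.56 times the lowest, where the variable copy spanned 6.23 times. The log2FC was 0.09 (SE 0.122, 95% interval -0.17 to 0.35; edgeR adjusted p = 0.98). With a sample left out it ranged from 0.01 (without elmo1-/- sample 1) to 0.13 (without elmo1-/- sample 4). Counts of both copies were whole in 11 of 12 samples.

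marco (ENSDARG00000059294), a scavenger receptor that binds bacteria, was 1 of the 2 identifiers with a fold change below 0. It had 2.77, 1.91, 1.83, 1.95, 2.15 and 2.1 CPM in elmo1-/- samples 1 to 6, against 2.53, 2.28, 2.34, 1.70, 2.61 and 2.62 CPM in elmo1+/+ samples 1 to 6. Only elmo1-/- sample 1 exceeded the median of the elmo1+/+ samples, and it also exceeded their highest value. For marco the fitted log2FC was -0.14 (SE 0.143, 95% interval -0.45 to 0.16; edgeR adjusted p = 0.968), and -0.24 without elmo1-/- sample 1.

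Among the microglia genes, apoeb had 480.0, 349.0, 329.0, 207.0, 308.0 and 247.0 CPM in elmo1-/- samples 1 to 6, against 238.0, 348.0, 266.0, 199.0, 296.0 and 212.0 CPM in elmo1+/+ samples 1 to 6. In elmo1-/- larvae 2 samples were above the highest elmo1+/+ sample, although sample 2 exceeded it only slightly. The log2FC was 0.30 (SE 0.178, 95% interval -0.08 to 0.68; edgeR adjusted p = 0.919). With a sample left out it ranged from 0.15 (without elmo1-/- sample 1) to 0.40 (without elmo1+/+ sample 2). With 4236 to 10219 counts per sample counting gives a CV of only 1.28%, while the samples varied by 27.8%, so counting accounted for little of the spread of apoeb.

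SLC7A7, the cationic amino acid transporter y+LAT1 that marks early microglial precursors in zebrafish, had 27.1, 37.1, 18.2, 20.3, 16.7 and 20.2 CPM in elmo1-/- samples 1 to 6. In elmo1+/+ samples 1 to 6 it had 20.3, 25.6, 11.4, 17.7, 18.8 and 19.5 CPM. elmo1-/- samples 1 and 2 stood above all elmo1+/+ samples and the other 4 lay among them. SLC7A7 had a log2FC of 0.30 (SE 0.197, 95% interval -0.12 to 0.72; edgeR adjusted p = 0.928). With a sample left out this ranged from 0.12 (without elmo1-/- sample 2) to 0.41 (without elmo1+/+ sample 2). Its CV of 30.5% exceeded the 4.75% given by counting.

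lgals3bp.1, a galectin-3 binding protein gene, had 4.46, 4.87 and 5.41 CPM (lowest, median and highest) in elmo1-/- and 4.17, 5.62 and 6.23 CPM in elmo1+/+ samples. All 6 elmo1-/- samples lay below the elmo1+/+ median and within the elmo1+/+ range. Its log2FC was -0.13 (SE 0.101, 95% interval -0.35 to 0.08; edgeR adjusted p = 0.951), and this gene had the smallest CV of the 11, 11.6% over the 12 samples.

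havcr1 (ENSDARG00000040178), known in mammals as a receptor for phosphatidylserine on dying cells, had 1.16, 1.70 and 2.26 CPM in elmo1-/- and 1.22, 1.57 and 2.60 CPM in elmo1+/+ samples. The highest value, 2.60 CPM, was in elmo1+/+ sample 5, whose neighbour in that genotype stood at 1.63 CPM. havcr1 had a log2FC of 0.07 (SE 0.202, 95% interval -0.36 to 0.50; edgeR adjusted p = 0.988). Its counts were whole in 3 of 12 samples, and the length that the quantification assigned to it, read from the quotient of count and TPM relative to its median in each sample, differed up to 1.68 times between samples. For this gene CPM and TPM can thus order the samples differently, and the highest elmo1+/+ sample by TPM was sample 4 (2.23 TPM).

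**Figure D2:**
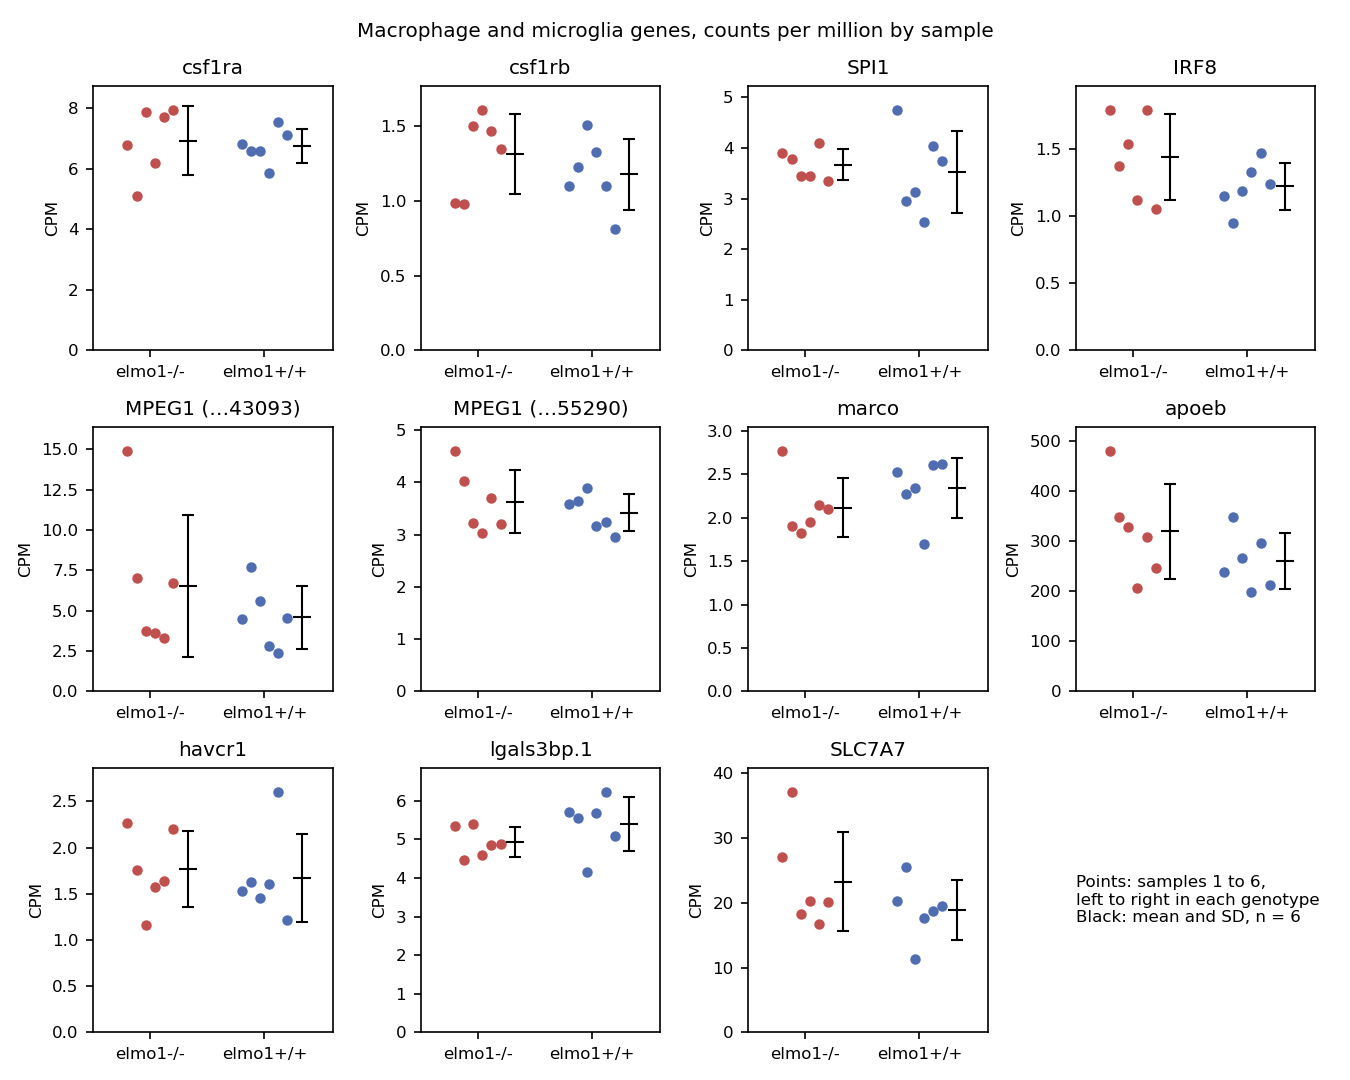
CPM of the 11 tested identifiers in each sample, elmo1-/- (red) left of elmo1+/+ (blue), with samples 1 to 6 from left to right and the mean and SD in black (n = 6 each). The genotypes overlap in every panel, and elmo1-/- sample 1 stands apart at 14.9 CPM for the MPEG1 copy ENSDARG00000043093.

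**Figure D3:**
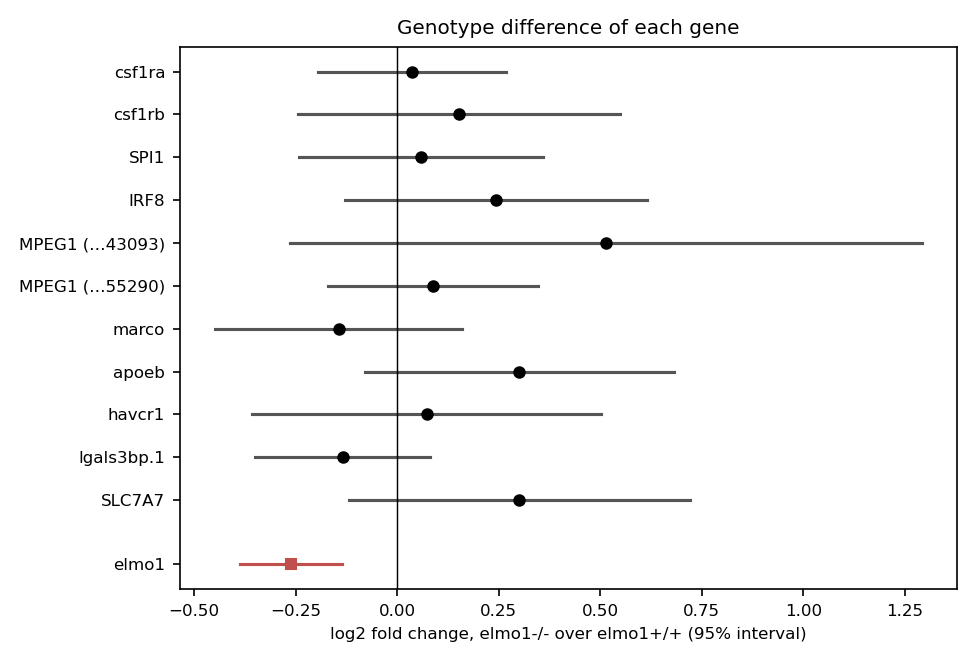
Log2FC, elmo1-/- over elmo1+/+, of the 11 tested identifiers (black) and elmo1 (red square) with 95% intervals from the edgeR fit. All 11 intervals cover 0 and that of elmo1, -0.39 to -0.14, does not. Whether an interval covers 0 restates the unadjusted p of the same fit and is not a separate result.

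The samples were then viewed across the genes. elmo1-/- sample 1 was the highest of the 12 samples for 4 of the 11 identifiers (both MPEG1 copies, marco and apoeb) and the lowest for none. Its median centred log2 CPM over the 11 was 0.39, whereas the other 5 elmo1-/- samples lay between -0.16 and 0.08 and the elmo1+/+ samples between -0.20 and 0.15. elmo1+/+ sample 4 was the lowest of the 12 for 3 of the 11.

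To compare genes within a sample, ratios of TPM were formed, which do not depend on the scaling of the sample. csf1ra stood at 4.37 ± 0.828 times csf1rb in elmo1-/- and 4.84 ± 1.34 times csf1rb in elmo1+/+ samples (SD, n = 6 each; two-sided exact permutation test, p = 0.532). SLC7A7 was at 7.06 ± 1.75 times the steady MPEG1 copy in elmo1-/- and 6.19 ± 1.57 times in elmo1+/+ samples (exact permutation test, p = 0.431). Against the variable copy it was at 4.74 ± 1.67 times in elmo1-/- and 5.24 ± 2.31 times in elmo1+/+ samples (exact permutation test, p = 0.755). Neither ratio of SLC7A7 to an MPEG1 copy differed between the genotypes beyond the spread between samples. No such ratio was formed for apoeb, havcr1 or lgals3bp.1.

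lyz, the lysozyme gene of zebrafish neutrophils that is also found in some macrophages, was used as the neutrophil gene. Its own log2FC was 0.34 (SE 0.127; edgeR unadjusted p = 0.0178, adjusted p = 0.678). A ratio to lyz therefore also carries the difference in lyz. The steady MPEG1 copy was present at 0.0336 ± 0.00953 times lyz in elmo1-/- and 0.0395 ± 0.00871 times lyz in elmo1+/+ samples (exact permutation test, p = 0.253). The variable copy was at 0.0624 ± 0.0447 times lyz in elmo1-/- and 0.0525 ± 0.0233 times lyz in elmo1+/+ samples (exact permutation test, p = 0.885). After Benjamini-Hochberg adjustment over the 5 ratios every p was 0.885 (exact permutation over all relabellings of the samples).

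Whether these genes varied together was examined over the 12 samples by correlation of log2 CPM, for all 55 pairs of the 11 identifiers. The median Pearson's r was 0.187, the range was -0.569 to 0.798, and 39 pairs lay above 0. After Benjamini-Hochberg adjustment 0 pairs passed 0.05 by r or by Spearman's rho (permutation test with 100000 draws), and 4 pairs had an unadjusted p under 0.05 by r. The highest r was that of the steady MPEG1 copy with apoeb, 0.798 (rho 0.804, unadjusted permutation p = 0.00207 and 0.00254, adjusted 0.114 and 0.14). It was 0.902 within the elmo1-/- and 0.565 within the elmo1+/+ samples, and 0.555 without the 2 samples farthest from the median of the MPEG1 copy. Without elmo1-/- sample 3 this pair passed (r 0.864, adjusted permutation p = 0.0445). No pair passed with any other sample left out or with log2-transformed TPM.

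Both MPEG1 copies followed with an r of 0.711 (rho 0.503, permutation p = 0.00926 and 0.099, adjusted 0.255 and 0.751), which was 0.753 within elmo1-/- and 0.577 within elmo1+/+ samples and 0.465 without the 2 farthest samples. The variable copy and apoeb had an r of 0.634 (rho 0.566, permutation p = 0.0256 and 0.0587, adjusted 0.47 and 0.751), and 0.509 without the 2 farthest samples. csf1rb had a median r of -0.244 with the other 10 identifiers and its lowest r, -0.569, with marco (adjusted permutation p = 0.599). None of its pairs passed. Within the elmo1-/- and elmo1+/+ samples its r was -0.508 and -0.552 with marco, but -0.869 and 0.733 with the steady MPEG1 copy. No other identifier had a median r below 0, and those of the other 10 ranged from 0.116 to 0.322. The CVs of csf1rb, IRF8 and marco were 20.2%, 20.4% and 15.6%, close to the 19.5%, 18.8% and 14.5% that counting alone gives. That of the steady MPEG1 copy was 13.7%, against 11.6% from counting alone, so much of its spread can be counting error.

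**Figure D4:**
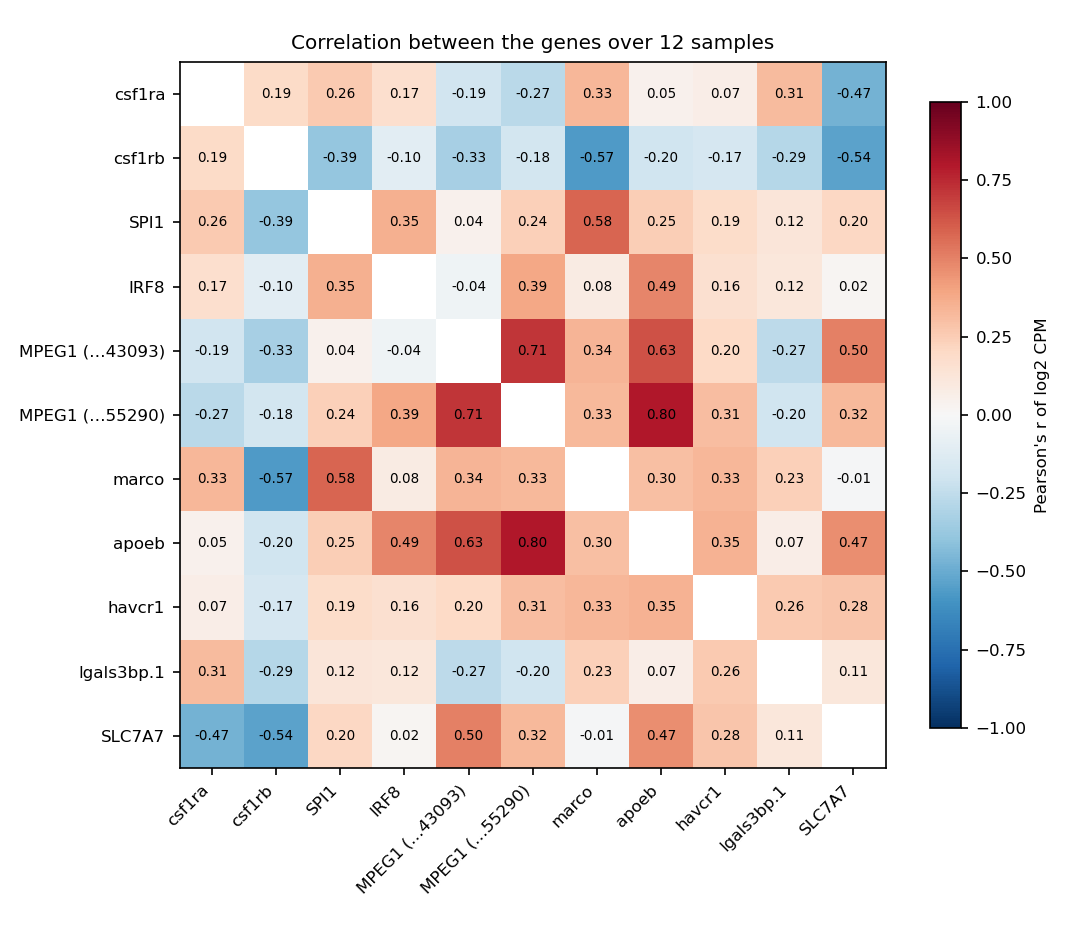
Pearson's r of log2 CPM over the 12 samples for each pair of the 11 tested identifiers (red above 0, blue below 0). The MPEG1 copies and apoeb form the block of highest values, 0.634 to 0.798, and csf1rb has mostly negative values.

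The genes most like MPEG1 were sought among tested genes with a symbol and a mean of at least 1 log2 CPM, by Pearson's r over the 12 samples. For the steady copy these included PHOSPHO1 (0.926), ARHGEF2 (0.902), TEX2 (0.897) and ripply3 (0.865). For the variable copy they were ftr78 (0.904), ankrd6a (0.867), STK17A (0.863), si:dkey-14o18.2 (0.854) and HSPB1 (0.853). No member was among them. apoeb ranked 54 and the variable copy 219 among all tested genes by likeness to the steady copy, and the next member, IRF8, ranked 3177. These values are a description over 12 samples of the highest among 21830 correlations.

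As several of these genes are also used outside macrophages, genes of other cell types were placed beside them. apoE genes are expressed in the yolk syncytial layer and liver, and apoeb lies beside apoc1 and close to apoa2 in the RefSeq annotation. The 7 yolk and liver genes summed to 5770, 4964, 4285, 2604, 2504 and 3931 CPM in elmo1-/- samples 1 to 6, against 3567, 4391, 3207, 2686, 3587 and 3339 CPM in elmo1+/+ samples 1 to 6. elmo1-/- sample 1, which was the highest for apoeb and both MPEG1 copies, was also the highest for this sum. All 7 had a fitted log2FC above 0 (0.02 to 0.32, median 0.23), and 0 of 7 passed the test, where 0.234% of all genes did.

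Over the 12 samples apoeb and the yolk and liver sum had an r of 0.769 (rho 0.741, permutation p = 0.00373 and 0.00823, adjusted over 7 such relations 0.00898 and 0.0452). The r was 0.746 within elmo1-/- (exact permutation p = 0.0847) and 0.848 within elmo1+/+ samples (exact permutation p = 0.0278), and 0.878 without the 2 samples farthest from the median of the sum. The variable MPEG1 copy had an r of 0.759 with the same sum (rho 0.706, permutation p = 0.00385 and 0.0129, adjusted 0.00898 and 0.0452). It was 0.821 within elmo1-/- (exact permutation p = 0.0486), 0.58 within elmo1+/+ (exact permutation p = 0.214) and 0.59 without the 2 farthest samples. For the steady copy r was 0.574 (rho 0.462, permutation p = 0.0528 and 0.136, adjusted 0.0862 and 0.159), and 0.537 without the 2 farthest samples. The 7 relations were chosen after the values were seen, and the adjustment over 7 does not cover that choice. Neither apoeb nor an MPEG1 copy was set against the sums of the other cell types. The part of yolk and liver RNA in the levels of apoeb and MPEG1 was not tested.

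SLC7A7 is a transporter of intestine and kidney in mammals. The 6 enterocyte identifiers summed to 717.4, 1008, 606.5, 593.7, 575.5 and 840.9 CPM in elmo1-/- samples 1 to 6 and to 651.3, 758.9, 541.5, 636.7, 740.3 and 794.8 CPM in elmo1+/+ samples 1 to 6. elmo1-/- sample 2, the highest for SLC7A7, was the highest for this sum, and elmo1+/+ sample 3 was the lowest for both. Their r was 0.788 (rho 0.664, permutation p = 0.00214 and 0.0211, adjusted 0.00898 and 0.0491), 0.818 within elmo1-/- (exact permutation p = 0.0403) and 0.815 within elmo1+/+ samples (exact permutation p = 0.0556). It was 0.443 without the 2 samples farthest from the median of the sum, so the pooled value rests in large part on these samples. A sum over kidney tubule genes was likewise highest in elmo1-/- sample 2 (318.6 CPM) and lowest in elmo1+/+ sample 3 (242.0 CPM). Its r with SLC7A7 was not computed. elmo1-/- samples 1 and 2, the highest for SLC7A7, were also the highest for the yolk and liver sum (5770 and 4964 CPM). The r of SLC7A7 with that sum was not computed either. Whether the relation is particular to enterocyte genes was therefore not tested. The relation with enterocyte genes, too, was chosen after the values were seen. The part of enterocyte or kidney RNA in SLC7A7 was not tested.

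**Figure D5:**
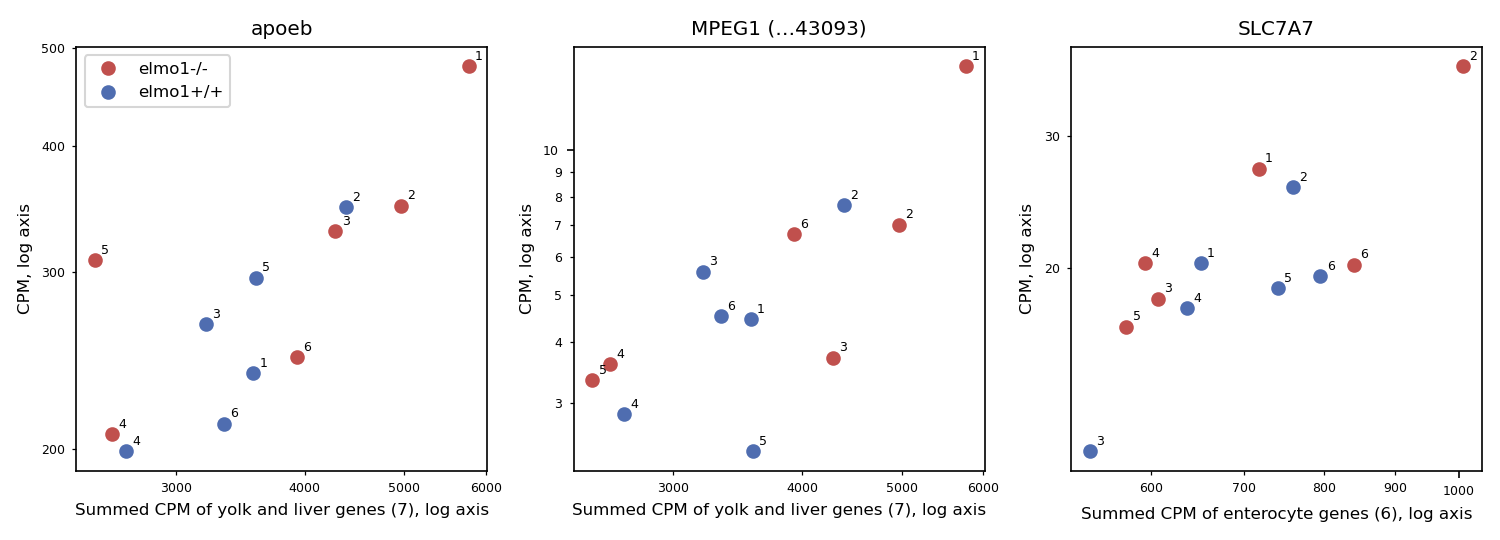
CPM of apoeb and the MPEG1 copy ENSDARG00000043093 against the summed CPM of 7 yolk and liver genes, and of SLC7A7 against that of 6 enterocyte identifiers, on log axes, for elmo1-/- (red) and elmo1+/+ samples (blue) with sample numbers. elmo1-/- sample 1 is highest on both axes in the first and second panel and elmo1-/- sample 2 in the third.

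For havcr1, a gene of the injured kidney tubule in mammals, the 7 kidney tubule identifiers summed to 253.0 to 319.0 CPM in elmo1-/- and 242.0 to 296.0 CPM in elmo1+/+ samples, with an r of 0.534 (rho 0.566, permutation p = 0.0739 and 0.0593, adjusted 0.0862 and 0.0947, and r 0.533 without the 2 farthest samples). csf1ra and the xanthophore sum had an r of 0.543 (rho 0.427, permutation p = 0.0683 and 0.169, adjusted 0.0862 and 0.169, and r 0.316 without the 2 farthest samples). None of the 7 kidney and 6 xanthophore identifiers passed the genotype test, where 0.234% of all genes did.

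The pathway around these genes was examined next. The ligands of the Csf1 receptors did not pass the test: csf1a stood at 4.69 ± 0.606 CPM in elmo1-/- and 5.18 ± 0.96 CPM in elmo1+/+ samples with a log2FC of -0.14 (SE 0.129), csf1b 4.66 ± 0.521 and 4.86 ± 0.567 CPM with -0.06 (SE 0.105), and il34 1.98 ± 0.302 and 1.89 ± 0.322 CPM with 0.06 (SE 0.151; SD, n = 6 each; edgeR adjusted p = 0.959, 0.983 and 0.987). Of 7 further myeloid transcription factors, among them CEBPA, CEBPB and RUNX1, 0 passed, where 0.234% of all genes did. Their log2FCs ranged from -0.13 to 0.30 with a median of 0.01. Of 8 further microglia identifiers (3 listed names had none), among them the purine receptor P2RY12 and the transporter SLC37A2, 0 passed. Their log2FCs were -0.12 to 0.14, and the share called among all genes was again 0.234%.

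Of 13 tested identifiers of other macrophage genes, 1 fell in elmo1-/- larvae and 0 rose, against 0.124% and 0.11% of all genes. This was the granulin gene grna.1 (ENSDARG00000089362, listed as grn1), one of the progranulin-related genes, which encode secreted growth factors. It had 6.09, 7.26, 6.32, 6.2, 7.33 and 7.58 CPM in elmo1-/- samples 1 to 6 and 16.1, 16.4, 15.1, 14.6, 15.3 and 15.9 CPM in elmo1+/+ samples 1 to 6. The genotypes were fully separated, as for 0.513% of all genes, with a log2FC of -1.19 (SE 0.0714; edgeR adjusted p = 4.91e-07). The other macrophage genes, among them MRC1, cd74a, cd74b, cxcr3.2, timd4, ctss2.1, ctss2.2 and the 4 tested MFAP4 copies, did not pass, and the median over the 13 was 0.0027.

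grna.1 and its neighbour grna.2 (ENSDARG00000088641) are adjacent in the RefSeq annotation and lie on the chromosome of elmo1. Of the 51 genes called among all, 33 could be placed by symbol, and 16 of these lay on that chromosome, which held 4.07% of the tested genes that could be placed. grna.2 was low and had a log2FC of 1.48 (SE 0.525; edgeR adjusted p = 0.628). In elmo1-/- samples 1 and 6 the counts of both genes were not whole, as for reads divided between similar genes. In the samples with whole counts grna.1 had 127 to 160 counts in elmo1-/- and 319 to 350 counts in elmo1+/+ larvae. Their sum was 6.55 to 9.04 CPM in elmo1-/- and 14.8 to 17.2 CPM in elmo1+/+ samples, a ratio of geometric means of 0.501. The two-sided exact permutation test gave p = 0.00216, the lowest value possible with 6 samples in each genotype. The sum was formed after grna.1 had been called. In elmo1+/+ samples the median was 15.6 CPM for grna.1 and 0.321 CPM for grna.2. The separation of the sum thus largely restates that of grna.1 and is not a separate test. The part of divided reads in the difference was not tested. A difference from the loss of Elmo1 cannot be told apart here from a difference between the chromosomes that carry the 2 elmo1 alleles.

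The phagocyte machinery and the other blood cells were also compared. Of 12 lysosome and phagosome genes 0 passed, where 0.234% of all genes did, with log2FCs of -0.12 to 0.54 and a median of 0.03. Of 10 genes shared by leukocytes, such as ptprc and LCP1, 0 passed, with -0.32 to 0.32 and a median of -0.01, and 4 had an unadjusted p under 0.05 (itgb2 and NCF1 with a log2FC above 0, WAS and ARPC1B below 0), where 6.16% of all genes did. The 5 neutrophil genes all had a fitted log2FC above 0 (0.06 to 0.43, median 0.20). 0 of these 5 passed, and 2 (lyz and npsn) had an unadjusted p under 0.05, against 6.16% of all genes. The 5 genes summed to 36.5 to 48.0 CPM in elmo1-/- and 30.0 to 40.3 CPM in elmo1+/+ samples.

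Of 8 lymphocyte genes 5 could be tested and 0 passed, where 0.234% of all genes did. Among these 5, 2 (RAG1 and lck, both with a log2FC below 0) had an unadjusted p under 0.05, against 6.16% of all genes. The median log2FC of these 5 was -0.44, and all 8 summed to a median of 8.13 CPM in elmo1-/- and 10.4 CPM in elmo1+/+ samples. RAG1, a recombinase gene of lymphocyte precursors, had 3.34 ± 0.903 CPM in elmo1-/- and 5.63 ± 1.45 CPM in elmo1+/+ samples (SD, n = 6 each; log2FC -0.75, edgeR adjusted p = 0.256, DESeq2 adjusted p = 0.0342). RAG2 stood at 1.12 ± 0.237 and 1.11 ± 0.189 CPM, with a log2FC of 0.01 (edgeR adjusted p = 0.998). IKZF1, lck and il7r had log2FCs of -0.01, -0.97 and -0.44 (edgeR adjusted p = 0.995, 0.51 and 0.928). cd8a was above 0 in only 3 of 12 samples. RAG1, RAG2, IKZF1, lck, il7r, npsn, itgb2, NCF1, WAS and ARPC1B were named after their values were seen.

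Glial genes were listed as other residents of brain and retina, and 1 of their 9 identifiers rose, against 0.11% of all genes. This was a copy named FABP7 (ENSDARG00000034650), a brain fatty acid binding protein gene, with 28 to 64 counts in elmo1-/- and 0 to 3 counts in elmo1+/+ samples. Summed over the samples it had 243 counts in elmo1-/- and 8 counts in elmo1+/+ larvae, a ratio of 30.7 after scaling to depth (exact 95% interval 15.3 to 72.0, counting error only; edgeR adjusted p = 2.25e-05). The other FABP7 copy (ENSDARG00000007697) had a log2FC of -0.05 (edgeR adjusted p = 0.985). The list named fabp7a, and both identifiers were found by the shared name FABP7, so which of them is fabp7a was not settled. Neither fabp7a nor fabp7b lies on the chromosome of elmo1 in the RefSeq annotation. The lines below concern the copy ENSDARG00000034650. This copy passed the filter on low counts only through the elmo1-/- samples, where it was high, so its call is not set against the share of all genes as support. Over the 13 lists beside the 10 genes, 98 identifiers were tested and these 2, grna.1 and the FABP7 copy, passed, where 0.234% of all genes did. With at least 10 counts required in every sample, 89 identifiers were tested and 1 passed.

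Close relatives of the genes were set beside them, chosen after their values were seen. apoea, the second apolipoprotein E gene, stood at 79.7 ± 29.1 CPM in elmo1-/- and 62.8 ± 8.13 CPM in elmo1+/+ samples (SD, n = 6 each; log2FC 0.34, SE 0.199, edgeR adjusted p = 0.912), close in size and direction to apoeb, and it lies on the chromosome of elmo1. Its r with apoeb was 0.501 (rho 0.552, permutation p = 0.0993 and 0.0676, adjusted 0.0993 and 0.0947), and 0.714 without the 2 farthest samples. spi1a had 3.29 ± 0.304 CPM in elmo1-/- and 3.26 ± 0.485 CPM in elmo1+/+ samples, a level in CPM near that of SPI1. lgals3bp.2 was lower than lgals3bp.1, at 1.14 ± 0.77 and 1.32 ± 0.949 CPM, and lgals3bp.3 did not pass the filter on low counts. havcr2 had 1.11 ± 0.35 CPM in elmo1-/- and 1.05 ± 0.14 CPM in elmo1+/+ samples. None of the 4 relatives tested passed, where 0.234% of all genes did.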

How the data were processed

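RNA of 12 samples was sequenced on a BGISEQ-500. The submitters' processing notes name kallisto 0.4.6, Trim Galore 0.6.4 and the build GRCz11, without their roles. The deposited expected counts, estimated per gene by the authors, were rounded to whole numbers, and the deposited TPM values, normalized by the authors for length and depth, were used for levels and ratios. How reads shared by gene copies are divided affects both.

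Genes were filtered with filterByExpr of edgeR 4.0.16 (R 4.3.3, minimum count 10), which left 21830 genes, scaled with TMM factors and compared with the quasi-likelihood test, with genotype as the only term and Benjamini-Hochberg adjustment over all genes at 0.05. CPM were computed with the TMM factors, with a prior count of 2 for log2 CPM. Ratios were compared by two-sided exact permutation over all relabellings of the 12 samples and correlations by 100000 permutations (SciPy 1.17.1, Python 3.11.15). Of the 32520 identifiers, 29201 (89.8%) had a symbol. The edgeR test was tested on simulated counts.

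Members and gene lists were chosen with earlier results of these data known. Named genes are all members, elmo1, the Csf1 receptor ligands, in each list the genes past the threshold, and the 5 genes most correlated with each MPEG1 copy, of which 1 is not reported here. As mpeg1.1 matched several identifiers and mpx none, 5 ratios with both detected MPEG1 copies and lyz replaced the 3 planned. The relations with other lists and the paralogues were added after seeing the data. Alternatives were other scaling factors, DESeq2 1.42.0, limma 3.58.1 (voom, or limma-trend on log2-transformed TPM with a pseudocount of 1 or 0.1), a stricter or no filter, an adjusted p under 0.01, a replicate block and leaving out each sample. No sequences were used here.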

Additional observations from a re-analysis of the deposited data

Results flagged for a closer look

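Within each genotype, the 11 tested identifiers by CPM and the 5 TPM ratios gave 32 sets of 6 samples, and each was searched for a lone sample whose distance to the nearest other, divided by the range, was above the 95% critical value of Dixon's test. Of these, 5 stood apart, and about 1 in 20, here 1.6, are given by chance. The MPEG1 copy ENSDARG00000043093 stood at 14.9 CPM in elmo1-/- sample 1, with the next sample at 7.01 CPM. marco was highest in the same sample, at 2.77 CPM with the next at 2.15 CPM, and lowest in elmo1+/+ sample 4, at 1.70 CPM with the next at 2.28 CPM. havcr1 was highest in elmo1+/+ sample 5, at 2.60 CPM with the next at 1.63 CPM. The ratio of SLC7A7 to the MPEG1 copy ENSDARG00000055290 was lowest in elmo1+/+ sample 3, at 3.25 with the next at 6.18.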

How the results depend on the processing

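The count of members called was 0 under all 22 alternatives, and their median log2 fold change stayed between 0.037 and 0.132. Among all genes 51 were called, 97 with DESeq2, 30 at an adjusted p under 0.01 and 34 to 67 when a sample was left out. On the other lists 2 genes passed, 1 where at least 10 counts were required in every sample, which removed the FABP7 copy from the test, and 4 with the replicate block. DESeq2 also called RAG1 (adjusted p = 0.0342) and gave elmo1 a log2 fold change of -0.26 with an adjusted p of 0.00817. The sign of csf1ra turned to -0.010 with log2(TPM + 1), to -0.018 with log2(TPM + 0.1) and with 3 samples left out in turn (range -0.012 to 0.11). That of SPI1 turned without elmo1+/+ sample 4 (-0.021 to 0.16) and that of havcr1 without elmo1-/- samples 1 or 6 (-0.012 to 0.24). With a sample left out, the mean log2 difference ranged from -0.33 to 0.11 for the ratio of SLC7A7 to the MPEG1 copy ENSDARG00000043093 and from -0.22 to 0.31 for the ratio of that copy to lyz. The steady MPEG1 copy and apoeb passed as a pair (r 0.864, adjusted permutation p = 0.0445) without elmo1-/- sample 3, so 0 to 1 pairs passed when a sample was left out. By CPM in place of TPM, apoeb supplied 83.8% of the summed level in elmo1+/+ samples. The cause of these shifts was not tested, apart from the filter.

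Replicate numbers 1 to 6 are given in both genotypes and nothing says what they mark. Deviations from the genotype mean correlated between same-numbered samples with r of -0.03 to 0.30 (mean 0.13), above 0.1 in 4 of 6 pairs. elmo1-/- samples 2, 3 and 4 correlated most with the elmo1+/+ sample of the same number. Whether the numbers mark a shared batch was not tested. Apart from the replicate block, the tests treated the samples as unpaired. With the replicate block 60 genes were called among all, and the 4 on the other lists were grna.1, the FABP7 copy, RAG1 and cahz, while 0 members passed (adjusted p of at least 0.502). Depth limited csf1rb, IRF8 and havcr1 most, for which counting alone gives CVs of 19.5%, 18.8% and 16.6%. The spread of csf1rb, IRF8 and marco was close to that of counting alone.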
